A study of Mus musculus with 26 samples.

Results

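The nuclear genes of the mitochondrial respiratory chain and ATP synthase were followed through 4 RNA libraries, taken along the conversion of cultured mouse embryonic stem (ES) cells to spinal motor neurons. The genes were chosen by symbol alone: every row of the deposited expression table whose symbol starts with Ndufa, Ndufb, Ndufc, Ndufs, Ndufv, Uqcr, Cox4 to Cox8 or Atp5, or is Sdha, Sdhb, Sdhc or Sdhd. This gave 90 members of 37450 rows. Of these, 40 were assigned to complex I, 4 to complex II, 8 to complex III, 19 to complex IV and 19 to complex V. The last count includes Atp5sl, which is Dmac2 in RefSeq and was not counted as a subunit. Common subunits, which nearly every cell makes, numbered 73. The other members were 8 tissue isoforms, 7 assembly factors or proteins that are not subunits, and 2 pseudogene or pseudogene-like copies of Atp5l. Cox4i1, the common form of complex IV subunit 4, was not analysed here.

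Ribosome-depleted RNA was sequenced in 1 library on each of days 0, 4, 5 and 6, out of 26 samples in the series. The day 0 cells were ES cells of the HBG3 line with nothing added. The day 4 cells, labelled motor neuron progenitors, were HBG3 cells given 1 uM retinoic acid and 0.25 uM SAG, a Hedgehog pathway agonist, on day 2. The day 5 and day 6 cells, labelled spinal motor neurons and called postmitotic by the series, were iCre cells that had the same additions and also 5 uM DAPT, a Notch pathway inhibitor, on day 4 for the day 5 cells and on days 4 and 5 for the day 6 cells. The cell type label gives Ainv15 for all 4. The comparison of day 5 with day 4 therefore mixes the day with the line and with DAPT. That of day 6 with day 0 mixes the day with the line and with retinoic acid, SAG and DAPT. That of day 4 with day 0 mixes the day with retinoic acid and SAG. In each case these cannot be told apart. ES cell markers summed to 457.6 FPKM on day 0 and to under 1 FPKM on the other days. Progenitor markers summed to 227.6 FPKM on day 4 and still to 26.0 on day 5, of which Olig2 had 17.3. Motor neuron markers summed to 0.736, 10.3, 156.6 and 155.5 FPKM on days 0, 4, 5 and 6. From day 5 to day 6, Isl1 was at 88.0 and 116.5 FPKM and Chat at 8.02 and 13.2. Lhx3 went the other way, at 24.1 and 3.90 FPKM, as did Mnx1, at 36.5 and 22.0. FPKM is a fragment count scaled by gene length and library size, as computed by the authors. The read depth is unknown.

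The respiratory chain passes electrons from food to oxygen and uses the energy to pump protons across the inner mitochondrial membrane. Complex I takes electrons from NADH and complex II from succinate, complex III hands them from coenzyme Q to cytochrome c, complex IV gives them to oxygen, and complex V, the ATP synthase, lets the protons back to make ATP. Nuclear genes encode most subunits and mitochondrial DNA encodes the rest, so each complex except complex II is built from both genomes. ES cells are known for a strong use of glycolysis, and neurons for their dependence on respiration. Some complex IV subunits come in pairs of genes, with an isoform for muscle, lung, testis or low oxygen beside the common one.

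Promoters of these genes are known targets of NRF1, of GABP (an ETS family factor) and of YY1. The RefSeq promoter table (build GRCm38.p6) matched 72 of the 90 members, and windows of 300 bases, of which 250 lie before the start, were searched on both strands for GCGCATGC (NRF1 core), CCGGAAG (ETS) and AAGATGGC (YY1 core). The NRF1 core overlaps its own reverse complement wherever a site is a full palindrome. Sequences from 120 bases before to 30 bases after the start are shown for 4 members that were among those with higher levels on day 4 than on day 0, for Ndufa8, whose level was nearly flat, and for the muscle isoform Cox7a1. They were picked after the values and matches were seen, to show what each motif looks like in place. Capitals mark a motif in either orientation.
Uqcr11 promoter, chr10:80406792-80406941, minus strand: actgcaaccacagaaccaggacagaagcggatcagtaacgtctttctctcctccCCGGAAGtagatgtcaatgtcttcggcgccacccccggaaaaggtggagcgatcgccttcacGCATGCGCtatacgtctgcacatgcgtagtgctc
Atp5k promoter, chr5:108434370-108434519, minus strand: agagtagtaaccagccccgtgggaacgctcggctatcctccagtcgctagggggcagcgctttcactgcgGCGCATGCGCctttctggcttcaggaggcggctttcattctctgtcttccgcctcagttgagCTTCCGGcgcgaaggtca
Cox8a promoter, chr19:7217587-7217736, minus strand: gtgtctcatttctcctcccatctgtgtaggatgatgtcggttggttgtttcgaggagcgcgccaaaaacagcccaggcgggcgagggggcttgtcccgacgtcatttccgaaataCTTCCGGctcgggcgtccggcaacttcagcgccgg
Ndufa3 promoter, chr7:3617253-3617402, plus strand: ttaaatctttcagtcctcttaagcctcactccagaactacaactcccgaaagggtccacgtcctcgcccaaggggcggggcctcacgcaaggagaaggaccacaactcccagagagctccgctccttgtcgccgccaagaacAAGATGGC
Ndufa8 promoter, chr2:36049309-36049458, minus strand: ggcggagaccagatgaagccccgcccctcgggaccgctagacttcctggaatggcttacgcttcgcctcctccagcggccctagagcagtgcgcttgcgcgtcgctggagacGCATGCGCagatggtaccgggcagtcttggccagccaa
Cox7a1 promoter, chr7:30184051-30184200, plus strand: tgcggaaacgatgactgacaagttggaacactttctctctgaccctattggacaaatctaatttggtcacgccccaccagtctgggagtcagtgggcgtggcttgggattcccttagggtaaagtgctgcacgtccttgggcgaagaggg
The Uqcr11 window (ENSMUSG00000020163, a small subunit of complex III) held an ETS motif and an NRF1 core, and that of Atp5k (ENSMUSG00000050856, subunit e of the ATP synthase) an NRF1 palindrome and an ETS motif. The stretch of Cox8a (ENSMUSG00000035885, a small complex IV subunit) held an ETS motif and that of Ndufa3 (ENSMUSG00000035674, a complex I accessory subunit) the YY1 core. Ndufa8 (ENSMUSG00000026895) held the NRF1 core next to its start, and Cox7a1 (ENSMUSG00000074218) held none of the 3.

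Over the 62 common subunits with a promoter, 10 held the NRF1 core (16.1%), 16 the ETS motif (25.8%) and 9 the YY1 core (14.5%), and 29 held at least 1 of the 3 (46.8%). Among all 27025 genes of the table these shares were 3.05%, 9.93%, 3.19% and 14.9%. Among the 9587 genes at 1 FPKM or more in any library they were 6.48%, 20.7%, 5.46% and 29.5%. Genes of the mitochondrial ribosome held a motif in 55.1% of 69 cases and those of the cytosolic ribosome in 50% of 68. Of the 21 common subunits with a promoter that passed 2-fold higher on day 4 against day 0, 12 held a motif (57.1%), against 17 of the other 41 (41.5%). None of the 4 tissue isoforms in the promoter table held one. After the start, the YY1 core lay on the strand of the gene in 284 of all windows and on the opposite strand in 89. The NRF1 core did so in 86 and 84, and the ETS motif in 340 and 369. The reason for the strand bias of the YY1 letters was not tested. All these are matches of letters in a window and say nothing of binding.

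In these libraries 79 of the 90 members were at 1 FPKM or more on all 4 days, 3 on some days (Cox6b2, Cox7a1 and Atp5s) and 8 on none. The 73 common subunits summed to 3408 FPKM on day 0, 5348 on day 4, 3551 on day 5 and 3835 on day 6. The day 4 library was the highest. The ES cell library was the lowest as deposited, and the day 5 library after rescaling to a common median ratio (explained with the first comparison), with sums of 3612, 4718, 3470 and 4149 FPKM on days 0, 4, 5 and 6. With 1 library per day no test is possible, so higher and lower calls rest on size: the difference of log2(FPKM + 1) between 2 libraries had to reach 1, which is 2-fold, and the gene had to reach 1 FPKM in at least 1 of them. That scale understates the change of low genes. In bulk RNA, fewer cells that carry a transcript and less of it per cell cannot be told apart.

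**Figure D1:**
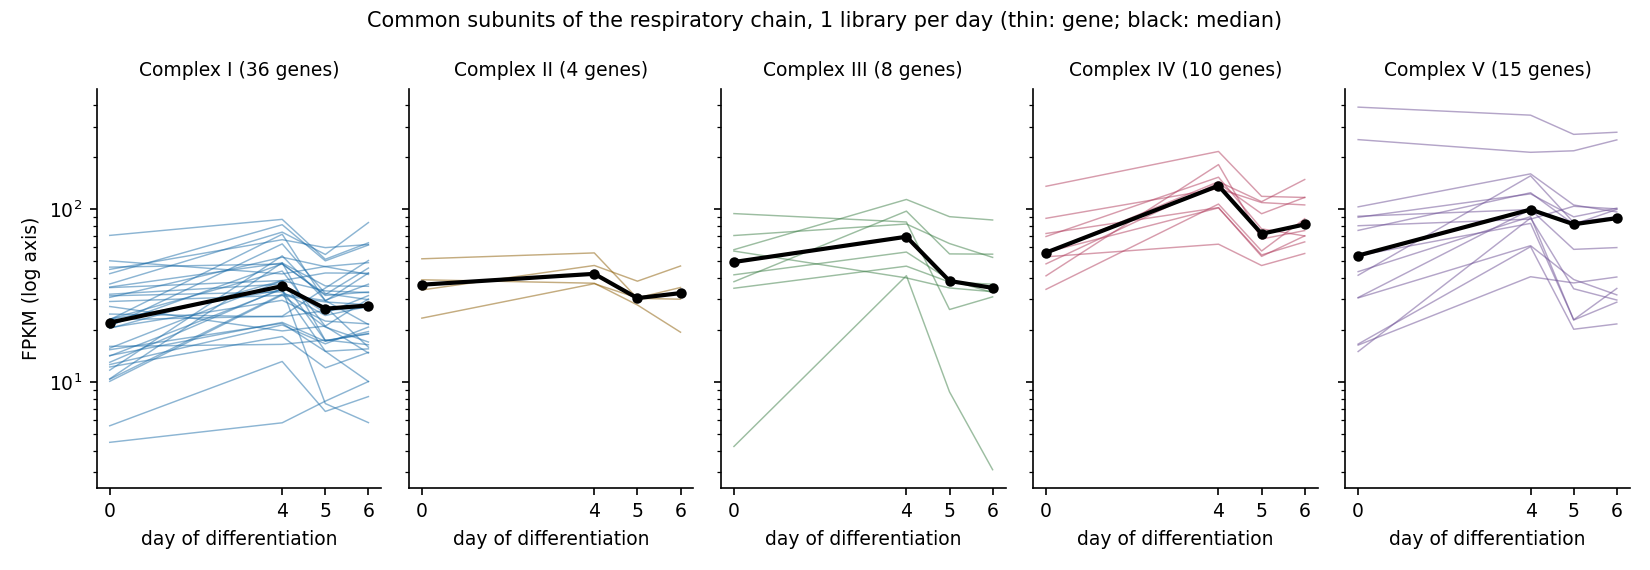
FPKM (log axis) of the 73 common subunits against day of differentiation, by complex, with 1 library per day, a thin line per gene and the median in black. The median of complex IV was 136.7 FPKM on day 4, against 56.0 on day 0, while that of complex II was 42.2 on day 4, against 36.5 on day 0.

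The first comparison set progenitors on day 4 against ES cells on day 0. Of 82 members measured, 24 (29.3%) were at least 2-fold higher on day 4. All of these were common subunits. Over all genes measured, 19.3% passed the same limit. Only Cox7a1 was at least 2-fold lower (1.22% of members, against 11.9% of all genes), and 57 members lay within 2-fold. The median difference of members was 0.58 on the log2 scale, against 0.23 over all genes. FPKM of the day 4 library stood above those of day 0 in general. After each library was divided by its median ratio to the mean profile, over 8244 genes at 1 FPKM or more on every day, day 4 moved down by 0.26 relative to day 0. Then 18 of 83 members were higher and 1 lower, with a median difference of 0.30, against 13.9% higher and 15.5% lower and a median of -0.01 over all genes.

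Complex I, the largest of the chain, had 11 of its 36 common subunits at least 2-fold higher on day 4. All 11 were accessory subunits, which surround the catalytic core, out of 29. None of the 7 core subunits, which carry the flavin and the iron-sulfur clusters, was. The median difference was 0.76 for accessory and 0.45 for core subunits (0.50 and 0.19 after rescaling).

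Ndufa5 was at 10.4 FPKM on day 0, 49.0 on day 4, 17.3 on day 5 and 19.0 on day 6. Ndufa1, a small membrane subunit needed to assemble the complex, was at 11.7, 53.7, 29.7 and 36.8 FPKM on days 0, 4, 5 and 6. Their differences on day 4 against day 0, 2.13 and 2.11 on the log2 scale, were the largest within complex I. In both, all 3 later libraries stood above the ES cell library, but only Ndufa1 was still past 2-fold on day 6.

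Ndufa3 was at 22.9, 71.6, 29.4 and 42.6 FPKM on days 0, 4, 5 and 6, and Ndufa2 at 21.0, 62.9, 32.5 and 29.9. Ndufa13, also known as GRIM-19, was at 10.1, 31.8, 20.7 and 17.0 FPKM, Ndufa12 at 13.0, 34.8, 27.2 and 15.9, and Ndufc1 at 10.3, 32.2, 29.5 and 21.5. In each of these 5 genes day 4 was the highest and day 0 the lowest library as deposited. After rescaling, day 5 was as high as day 4 in Ndufc1. Ndufb11, Ndufb7 and Ndufb4, membrane arm subunits, were at 15.7, 21.2 and 5.56 FPKM on day 0, 38.5, 48.2 and 13.1 on day 4, 33.6, 31.6 and 6.74 on day 5, and 32.9, 33.1 and 8.21 on day 6. These 3 passed 2-fold on day 4 as deposited but not after rescaling. Ndufs5 stood apart, at 14.1, 34.4, 7.48 and 5.80 FPKM, since both later libraries were below the ES cell library, and it too was within 2-fold on day 4 after rescaling.

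The core subunits of complex I had smaller differences. Ndufs1, the largest core subunit that the nucleus encodes, was at 24.7, 23.8 and 25.8 FPKM on days 0, 4 and 5, and its day 6 level was 1.05 times that of day 5. It differed by less than 2-fold in every comparison. Among the core subunits, the largest difference of day 4 against day 0 was 0.89, for Ndufs7. Among all common complex I subunits Ndufa7 had the highest mean level, with 70.5, 87.3, 51.3 and 63.9 FPKM, and Ndufa11 the lowest. Ndufa8 was at 16.0, 16.5, 17.5 and 16.4 FPKM, with differences between -0.09 and 0.08 from each day to the next.

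Complex II, succinate dehydrogenase, which is also an enzyme of the citrate cycle, had none of its 4 genes past the 2-fold limit of log2(FPKM + 1) on day 4 or in any other comparison. Sdha, the flavoprotein, was at 39.0, 37.2, 27.9 and 19.4 FPKM on days 0, 4, 5 and 6. Sdhb, the iron-sulfur subunit, was at 23.4, 37.0, 30.6 and 35.2 FPKM. Sdhc, a membrane anchor, was at 34.0, 47.2, 38.3 and 46.9 FPKM, and Sdhd, the other anchor, at 51.6, 55.8, 30.4 and 30.1. On day 6 Sdha and Sdhd were lower than on day 0, by -0.97 and -0.76, and Sdhb and Sdhc higher, by 0.57 and 0.45. The signs thus differed, but these differences are within the limit and between single libraries of different lines. Sdha missed the limit narrowly: its FPKM on day 6 was 0.497 times that on day 0, past 2-fold before the pseudocount of 1 is added.

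In complex III, the cytochrome bc1 complex, 2 of 8 genes were past 2-fold higher on day 4. Uqcrq, a small subunit near the quinone site, was at 4.22 FPKM on day 0, 41.2 on day 4, 8.75 on day 5 and 3.10 on day 6. Its difference of 3.01 on day 4 was the largest of any member, 9.75-fold in FPKM, and the day 6 library was again as low as the ES cell library. Uqcr11 was at 38.0, 97.4, 55.1 and 54.9 FPKM. Uqcrfs1, the Rieske iron-sulfur protein, was at 34.8, 46.7, 37.8 and 36.8 FPKM, and Uqcrc1, a core protein, at 57.2, 40.0, 34.96 and 33.3. Their differences on day 4, 0.41 and -0.51, were smaller than those of Uqcrq and Uqcr11. They were larger in size than those of the accessory subunits Uqcrb, 0.22, and Uqcr10, -0.16. Uqcrh, the hinge protein, had the highest mean level, with 58.3, 113.8, 90.4 and 86.5 FPKM. The median difference of complex III was 0.42 (0.16 after rescaling).

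Complex IV, cytochrome c oxidase, had the largest median difference on day 4 of the 5 complexes, both as deposited (0.99) and after rescaling (0.73). Its catalytic core is encoded by mitochondrial DNA, so all 10 nuclear common subunits are accessory. All 10 were above their day 0 level on the deposited scale, 9 after rescaling (without Cox7b), and 5 were past 2-fold (4 after rescaling, without Cox6c). Cox8a was at 41.1, 181.2, 67.1 and 75.2 FPKM on days 0, 4, 5 and 6. Cox6a1, the common form of subunit 6A, was at 34.3, 107.0, 57.2 and 88.0 FPKM. Cox5b, a zinc-binding subunit, was at 48.2, 141.8, 94.1 and 116.9 FPKM. Day 0 was the lowest library in all 3, and day 4 the highest as deposited. After rescaling, day 6 was slightly above day 4 in Cox6a1 and Cox5b.

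Cox6b1, which faces cytochrome c, was at 55.7, 144.3, 110.5 and 148.5 FPKM on days 0, 4, 5 and 6, so that day 6 was no lower than day 4. Cox6c was at 69.4, 153.1, 76.9 and 70.0 FPKM. Cox7c had the highest mean of the complex, with 135.7, 215.9, 118.6 and 116.8 FPKM, and Cox7b the lowest, with 53.0, 62.7, 47.2 and 55.3. Ndufa4, once counted with complex I and now placed with complex IV, was at 88.5, 131.6, 109.2 and 105.8 FPKM. Cox7a2l, a factor that joins complexes into supercomplexes, was at 65.4, 60.2, 69.7 and 89.7 FPKM, the highest on day 6.

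In complex V, 6 of 15 common subunits were at least 2-fold higher on day 4 (5 after rescaling). The catalytic head differed little. Atp5b, the beta subunit and the most abundant member on every day, was at 389.8, 350.2, 271.1 and 278.9 FPKM on days 0, 4, 5 and 6, and Atp5a1, the alpha subunit, at 252.7, 213.4, 217.8 and 251.8. Some small subunits of the stalk and membrane part differed more. Atp5d, the delta subunit of the central stalk, was at 16.5, 60.6, 20.2 and 21.6 FPKM. Atp5e, the epsilon subunit beside it, was at 43.5, 90.5, 22.8 and 28.9 FPKM. In Atp5d the ES cell library was the lowest, and in Atp5e the day 5 library.

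Atp5k was at 41.4, 155.9, 83.6 and 90.5 FPKM on days 0, 4, 5 and 6. Atp5l, subunit g, was at 16.3, 40.6, 37.4 and 40.5 FPKM, and Atp5j2, subunit f, at 30.8, 99.6, 58.5 and 59.9. These membrane subunits were higher than in the ES cell library on every later day. Reads of Atp5l could be shared with its copies Atp5l-ps1 and Atp5l2, which were at no more than 0.527 FPKM on any day.

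**Figure D2:**
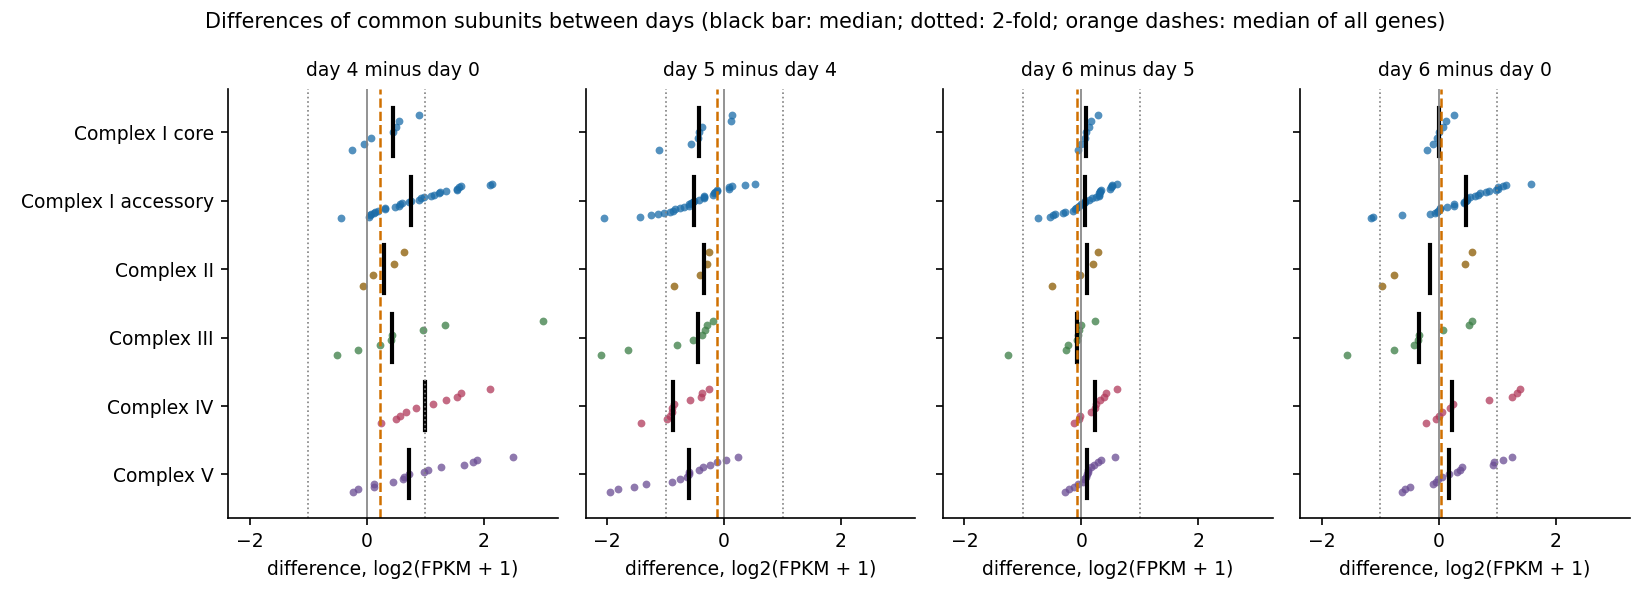
Difference of log2(FPKM + 1) between days for each common subunit (points), by complex, with the later day first in each panel title. Black bars are medians, dotted lines 2-fold and orange dashes the median of all genes; on day 4 against day 0 the accessory subunits of complex I reached 2.13 and the core subunits 0.89, and on day 5 against day 4 no point was past 2-fold higher.

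The second comparison set day 5 against day 4, between which the cells become postmitotic by their labels. The line and the addition of DAPT also differ. No member was at least 2-fold higher on day 5, against 11.5% of all genes. Of 82 members measured, 14 were at least 2-fold lower (17.1%), against 14.7% of all genes, a share near the background. The median difference was -0.53, against -0.11 over all genes. After rescaling, 0 of 82 were higher (13.4% of all genes) and 11 lower (11.6% of all genes), with a median of -0.39, against 0.02 over all genes. With each library scaled to a common sum, which also let in more low members (84 measured), the members' median was -0.18 and 9 were lower. By complex the median difference was -0.43 for complex I, -0.35 for II, -0.45 for III, -0.87 for IV and -0.60 for V.

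The 14 included Ndufa3, Ndufa5, Ndufs5, Uqcrq, Cox8a, Atp5d, Atp5e and Atp5g2, whose levels are given above or with subunit c. This comparison and that of day 4 with day 0 share the day 4 library. The largest difference was that of Uqcrq, -2.11, followed by Ndufs5 with -2.06 and Atp5e with -1.94.

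Among the other 6, Uqcr10, a small subunit of complex III, was at 94.2, 84.2, 26.2 and 31.0 FPKM on days 0, 4, 5 and 6, so that both later libraries lay below both earlier ones. Ndufs7, the core subunit that holds the last iron-sulfur cluster before the quinone, was at 20.4, 38.6, 17.3 and 18.9 FPKM. Ndufs6 was at 23.0, 34.1, 15.0 and 10.0 FPKM, and Ndufab1, the mitochondrial acyl carrier protein, at 23.1, 43.8, 21.0 and 14.7. These 3 were within 2-fold after rescaling, at -0.97, -0.98 and -0.88. Ndufaf2, an assembly factor of complex I, was at 8.26, 13.0, 4.64 and 3.44 FPKM. The last, Atp5g1, is 1 of 3 genes for subunit c.

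Subunit c forms the rotor ring of the ATP synthase, and Atp5g1, Atp5g2 and Atp5g3 encode the same mature protein with different import sequences. Atp5g2 was at 15.0, 88.8, 34.6 and 29.8 FPKM on days 0, 4, 5 and 6. Atp5g1 was at 53.9, 82.7, 22.9 and 34.7 FPKM, and Atp5g3 at 103.1, 160.1, 105.7 and 96.3. Their order changed: Atp5g1 was above Atp5g2 on days 0 and 6 and below it on days 4 and 5. Atp5g2 made up 8.71% of the 3 on day 0, 26.8% on day 4, 21.2% on day 5 and 18.5% on day 6, while Atp5g1 made up 31.3%, 24.9%, 14.02% and 21.6%. Atp5g3 was the most abundant on every day, at 48.3% or more. Shares within a library do not depend on rescaling.

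**Figure D3:**
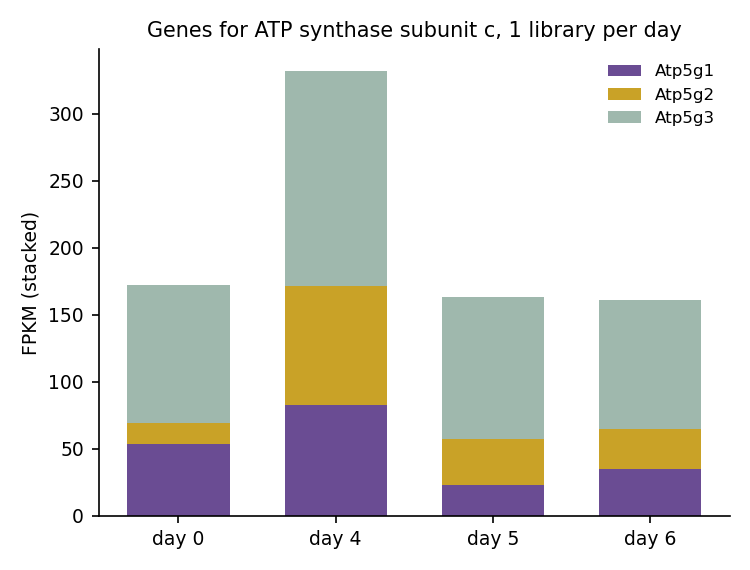
FPKM of the 3 genes for ATP synthase subunit c, stacked, by day, with 1 library per day. The stack was highest on day 4, and the Atp5g2 part was 8.71% of it on day 0 and 26.8% on day 4.

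The third comparison set day 6 against day 5, both from the iCre line. The chain differed little: of 81 members measured, none was at least 2-fold higher, against 6.57% of all genes, and only Uqcrq was at least 2-fold lower (1.23%, against 6.19% of all genes). The median difference was 0.08, against -0.07 over all genes. After rescaling, 0 of 81 were higher (8.17% of all genes) and 1 lower (4.98% of all genes), with a median of 0.22, against 0.06. All complexes but III had medians above 0 as deposited, between 0.07 and 0.24, and complex III had -0.07, which became 0.08 after rescaling. The highest member difference was 0.61, shared by Cox6a1, Ndufb8 and the low isoform Cox7a1. The order of the 73 common subunits by level was also closest between these libraries, with a Spearman rho of 0.96 across genes, against 0.76 between day 4 and day 0. This describes a set of genes in single libraries and is no test.

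The last comparison set day 6 against the ES cells of day 0, where the line and all the additions differ as well. Of 82 members measured, 11 were at least 2-fold higher (13.4%) and 6 lower (7.32%), against 26.1% and 23.7% of all genes, so both shares lay below the background. The median difference was 0.13, against 0.04. After rescaling 12 of 83 were higher (26.8% of all genes), with Ndufc1 added, and the same number, 6, lower (23.4% of all genes), with a median of 0.15, against 0.06.

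The 11 higher on day 6 included Ndufa1, Ndufb11, Cox5b, Cox6a1, Cox6b1, Atp5k and Atp5l, described above. This comparison shares the day 0 library with that of day 4. The other 4 had not reached 2-fold on day 4. Ndufv3, an accessory subunit beside the NADH site, was at 22.9, 24.0, 34.9 and 50.4 FPKM on days 0, 4, 5 and 6. Ndufa11 was at 4.46, 5.79, 7.73 and 10.0 FPKM. Ndufaf3, an assembly factor, was at 2.56, 4.84, 4.64 and 6.23 FPKM. Ndufb8 was at 36.8, 73.6, 54.6 and 83.6 FPKM. Ndufa11, and Ndufv3 as deposited, were higher in each library than in the one before, whereas most members were highest on day 4.

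The 6 lower on day 6 were Ndufs5, Ndufs6, Ndufaf2, Uqcr10 and the isoforms Cox6b2 and Cox7a1. Uqcr10 had the largest difference, -1.57, and Ndufs5 had -1.15. By complex, the median of day 6 minus day 0 was 0.27 in complex I (0.47 for accessory and 0.01 for core subunits), -0.15 in II, -0.34 in III, 0.23 in IV and 0.17 in V. None of the 7 core subunits of complex I and none of the genes of complex II was past the limit. Rescaling moved these medians by no more than 0.03.

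Among the 79 members at 1 FPKM or more on all days, 60 had their highest level on day 4 (75.9%), against 34.8% of the 8244 genes that met the same limit. Day 0 was the highest in 8, day 5 in 3 and day 6 in 8. After rescaling, day 4 was the highest in 41 (51.9%), against 24.4% of genes, and day 6 in 25 (31.6%), against 30.1%. Day 0 was the lowest library in 43 members as deposited (54.4%, against 38.1% of genes) and in 37 after rescaling (46.8%, against 33.6%). How many members peaked on day 4 thus depended on the scaling, since 60 of 79 did as deposited and 41 of 79 after rescaling. The day 4 peak was not particular to the chain. It was seen in 81.5% of 81 cytosolic ribosomal genes (65.4% after rescaling) and 63.2% of 76 mitochondrial ribosomal genes (51.3%). For the list of cytochrome c and coenzyme Q it was 9 of 11 genes (8 after rescaling). That list includes Cyc1, which belongs to complex III and was itself highest on day 4, so it is not wholly outside the chain. For the citrate cycle and pyruvate dehydrogenase it was 7 of 15 (4 after rescaling).

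The members that are neither common subunits nor Cox7a2l were low throughout, at no more than 13.0 FPKM. Ndufaf1 and Ndufaf4, the other assembly factors of complex I with an Ndufaf symbol, lay between 5.15 and 10.2 FPKM on all days and differed by less than 2-fold. Atp5s was between 0.609 and 1.74 FPKM, and Atp5sl between 2.32 and 5.02. All tissue isoforms of complex IV together summed to 9.94 FPKM on day 0, 3.55 on day 4, 1.88 on day 5 and 3.21 on day 6.

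Cox7a1, the heart and skeletal muscle form of subunit 7A, was at 4.44 FPKM on day 0, 1.44 on day 4, 0.456 on day 5 and 1.23 on day 6. Its partner Cox7a2 was at 72.3, 102.1, 53.3 and 70.0 FPKM, so that Cox7a1 made up 5.78%, 1.39%, 0.848% and 1.72% of the pair. Cox6b2, the testis form of subunit 6B, was at 3.42, 1.69, 0.972 and 0.866 FPKM, or 5.79%, 1.16%, 0.872% and 0.580% of its sum with Cox6b1. Both were highest in ES cells. Beside this, 11 rows of muscle markers, 2 of them for Tnnc1, summed to 120.8 FPKM on day 0 and to 1.24, 1.22 and 2.49 on days 4, 5 and 6. Mylpf alone, a myosin light chain, had 117.5 FPKM on day 0, 2 of the 11 rows were at 1 FPKM or more on day 0, and Myod1, a defining factor of muscle, was listed at 0 on every day. The 7 germ line and testis markers summed to 12.2 FPKM on day 0 and to 0.615, 0.225 and 0.274 on days 4, 5 and 6, with 4 of the 7 at 1 FPKM or more on day 0. The part of either cell type in the isoform levels was not tested.

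The other isoforms stayed under 1 FPKM in every library. Ndufa4l2, which hypoxia is known to induce, was at 0.997, 0.147, 0.327 and 0.341 FPKM on days 0, 4, 5 and 6. Cox4i2, the lung and low-oxygen form of subunit 4, was at 0.432, 0.193, 0.123 and 0.701 FPKM. Cox7b2 was at 0.656 FPKM on day 0, was listed at 0 on days 4 and 5 and was at 0.0748 on day 6. Cox6a2, the muscle form of subunit 6A, was at 0.0828 FPKM on day 4 and listed at 0 on the other days. Cox8b and Cox8c were listed at 0 on all days. The common forms of subunits 6A, 6B, 7A, 7B and 8A and Ndufa4 made up 94.2% or more of their families on every day.

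**Figure D4:**
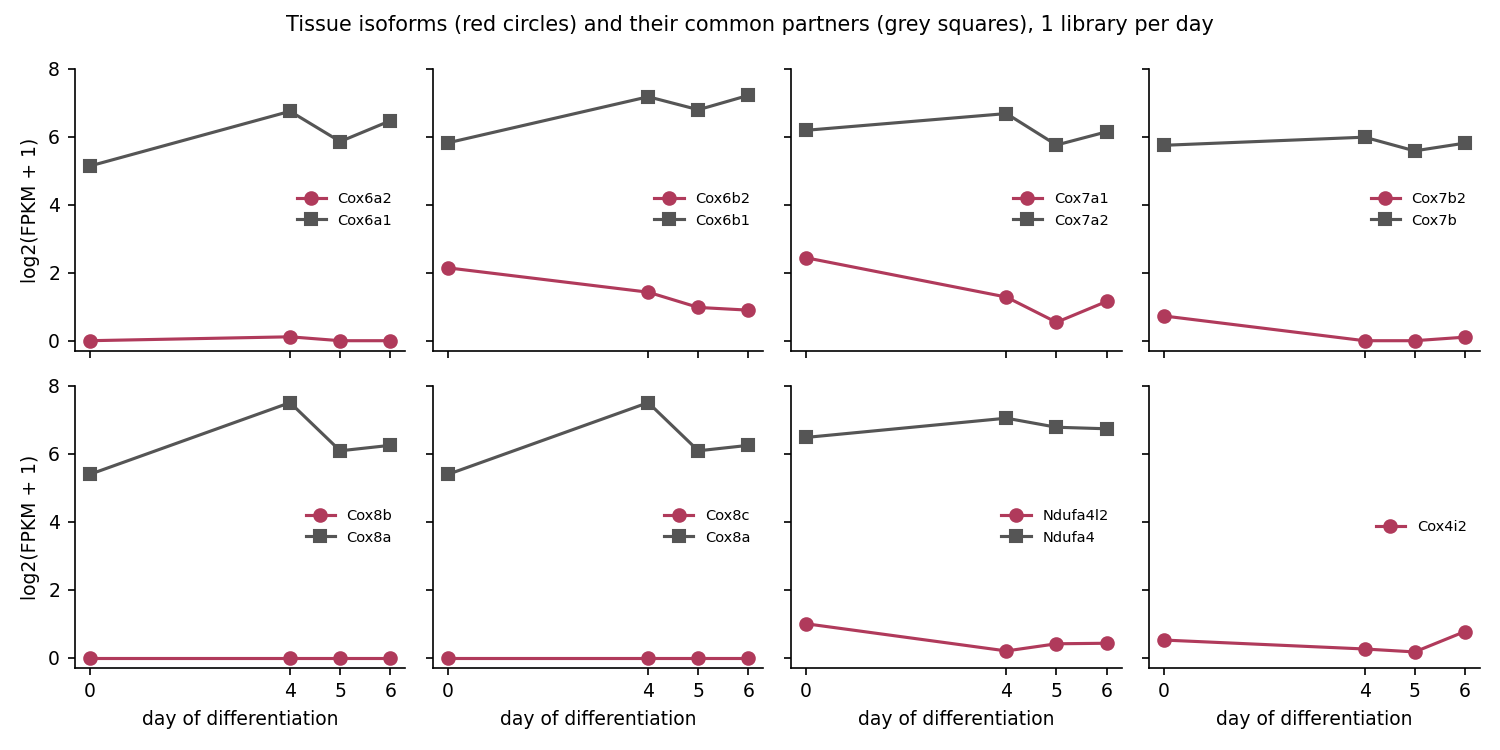
log2(FPKM + 1) of tissue isoforms (red circles) and their common partners (grey squares) by day, with 1 library per day. Cox7a1 and Cox6b2 were above 1 FPKM on day 0, at 4.44 and 3.42, and all the isoforms lay far below their partners on every day; Cox4i2 is shown alone.

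Other genes of the mitochondrion were compared on the same scale. Of 76 genes measured for the mitochondrial ribosome, which translates the mitochondrially encoded subunits, on day 4 against day 0 there were 14 past 2-fold higher and 4 lower, with a median of 0.27 (7 and 4, with a median of 0.02, after rescaling). The 14 were 18.4%, near the 19.3% of all genes, and the 4 were 5.26%, against 11.9%. On day 5 against day 4, 26 were lower and 0 higher, with a median of -0.78 (17 and 0, with a median of -0.64, after rescaling). The 26 were 34.2%, against 14.7% of all genes lower, and 11.5% of all genes were higher. On day 6 against day 5, 0 were past 2-fold either way, with a median of -0.19. Over all genes 6.57% were higher and 6.19% lower. On day 6 against day 0, 25 of the mitochondrial ribosomal genes were lower and 1 higher, with a median of -0.76. Over all genes 23.7% were lower and 26.1% higher. The common subunits of the chain had medians of 0.63, -0.53, 0.07 and 0.20 in the same comparisons.

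Of 83 genes measured for the cytosolic ribosome, 18 were higher and 3 lower on day 4 than on day 0, with a median of 0.60, close to that of the chain. The 18 were 21.7%, near the 19.3% of all genes, and the 3 were 3.61%, against 11.9%. On day 6 against day 0, 0 were higher and 30 lower, against 26.1% and 23.7% of all genes, with a median of -0.75. Both ribosomes thus had medians below 0 on day 6 against day 0, and the chain did not, as deposited and after rescaling (-0.74 and -0.72 for the ribosomes and 0.23 for the chain). No test of this difference is possible with 1 library per day.

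**Figure D5:**
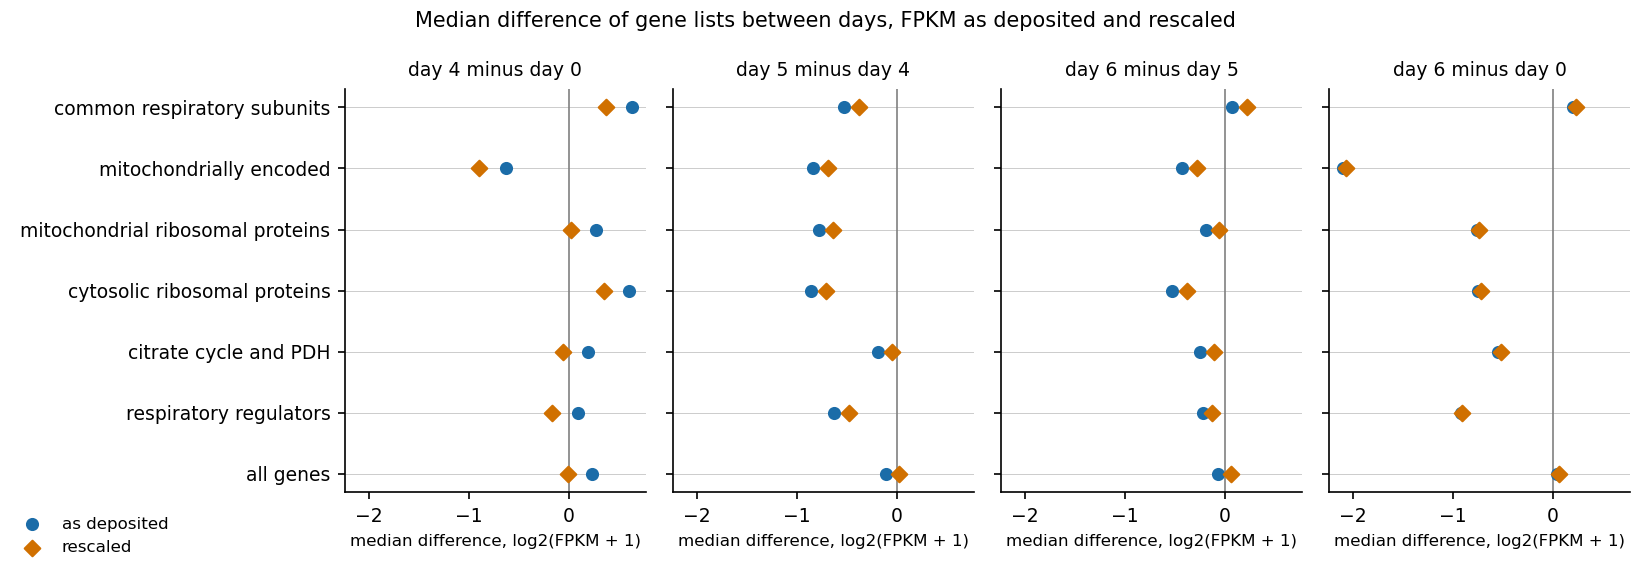
Median difference of log2(FPKM + 1) of gene lists between days, as deposited (blue circles) and rescaled (orange diamonds), with the later day first in each panel title and 1 library per day. On day 6 against day 0 the common respiratory subunits lay at 0.20 and the mitochondrial and cytosolic ribosomal proteins at -0.76 and -0.75.

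The subunits that mitochondrial DNA encodes did not follow a single course. Of its 13 protein genes, 7 were measured on every day, and the other 6 were listed at or near 0 although every cell uses them, so their values are not read here. Why they were near 0 was not tested, so the values of the 7 are uncertain as well. Day 0 was the highest library in 4 of the 7, and day 4 in 3, mt-Nd1, mt-Nd2 and mt-Cytb. mt-Co1, the catalytic subunit of complex IV, was at 4469, 2882, 1412 and 1726 FPKM on days 0, 4, 5 and 6. mt-Nd1, a membrane subunit of complex I, was at 807.2, 1539, 409.1 and 332.9 FPKM, and mt-Cytb, the cytochrome b of complex III, at 530.6, 744.6, 178.8 and 122.9. mt-Nd4 and mt-Nd5, proton-pumping subunits, were at 336.2 and 716.7 FPKM on day 0 and at 52.1 and 58.2 on day 6. mt-Nd2 was at 285.9, 487.1, 118.1 and 81.7 FPKM on days 0, 4, 5 and 6, and mt-Nd6 at 851.3, 37.2, 156 and 57.8. On day 6 against day 0, 7 of 7 were at least 2-fold lower, against 23.7% of all genes, with a median of -2.10. Over nuclear common subunits, 10 were higher and 3 lower in the same comparison.

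Of 18 regulators of respiratory genes, 15 or 16 were measured in each comparison. On day 6 against day 0, 7 were at least 2-fold lower and 1 higher, against 23.7% and 26.1% of all genes. Gabpa, the DNA-binding subunit of GABP, was at 36.5, 13.96, 9.34 and 5.71 FPKM on days 0, 4, 5 and 6. Nrf1 was at 21.7, 23.2, 10.8 and 8.11 FPKM. Tfam, which packages and transcribes mitochondrial DNA, was at 22.9, 19.5, 11.5 and 10.7 FPKM. The only regulator higher was Esrrg, a nuclear receptor that activates respiratory genes, which was under 1 FPKM on days 0 and 4, at 3.57 on day 5 and at 9.40 on day 6. Ppargc1a, the coactivator PGC-1alpha, stayed at or under 0.300 FPKM. On day 4 against day 0, when 24 members were higher, no regulator was higher and 2 were lower, Esrrb and Gabpa. The 2 were 13.3% of those measured, near the 11.9% of all genes, and 19.3% of all genes were higher.

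Neighbouring pathways were mixed. Of 16 genes of the citrate cycle and pyruvate dehydrogenase, 0 were higher and 4 lower on day 6 than on day 0, Idh3a, Pdha1, Suclg1 and Suclg2, with a median of -0.55. That is 25% lower, near the 23.7% of all genes. Suclg2, a subunit of succinyl-CoA synthetase, was at 11.4, 14.7, 2.77 and 0.912 FPKM on days 0, 4, 5 and 6. The list of 12 genes for cytochrome c and coenzyme Q also holds Cyc1 of complex III. On day 4 against day 0, 2 of the 12 were higher (Coq4 and Coq7) and 2 lower (Coq3 and the testis cytochrome c, Cyct). Each share was 16.7%, against 19.3% higher and 11.9% lower over all genes. Of 10 complex IV assembly genes, Cox19, a copper-related factor, was higher and Cox11, Cox17 and Sco1, which deliver copper, were lower on day 6 than on day 0. Of the 8 other assembly genes, Sdhaf1, which helps to build complex II, was higher on day 6 than on day 0. Over all genes 26.1% were higher and 23.7% lower in that comparison. The ADP/ATP carriers export the ATP that complex V makes. Slc25a4 was higher and Slc25a5 lower, each by 2-fold or more, on day 6 against day 0, while both were lower on day 5 than on day 4, within 2-fold. Slc25a4 was at 38.8, 118.0, 89.2 and 139.5 FPKM, and Slc25a5 at 284.2, 200.6, 105.7 and 78.5, so that Slc25a5 led on days 0, 4 and 5 and Slc25a4 on day 6.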

How the data were processed

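Ribosome-depleted RNA of 4 libraries, 1 per day, was read from a table of FPKM deposited by the authors for 37450 genes. Per the submitters' processing notes, the tools were STAR, MACS, HOMER 4.7.2 and Bowtie 0.12.7 and the build mm9, none tied to a step. The program behind the FPKM, strand use and read depth are not given in the sources used here, and no count was recovered. The most common ratio between values under 0.05 FPKM was 2.00 for day 4 over day 0 (8.36% of 574 genes), 0.973 for day 5 over day 4 (18.9% of 512) and 0.749 for day 6 over day 5 (20.5% of 624); these shares are too small to give relative depths. Chromatin files were not used. Small subunits have near-identical processed copies in the genome, so their reads may be shared.

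Members and lists were chosen with earlier results of these data known. Differences are of log2(FPKM + 1), later minus earlier day, with at least 1 FPKM required in either library. Values are given for members past 2-fold in any comparison, isoforms with their partners, complex II, and the highest and lowest common subunit of each complex; other genes are named from their lists. Other members named singly, such as Ndufs1, Ndufa8, Uqcrc1 and Atp5a1, were picked after their values were seen. Rescaling divided each library by its median ratio to the geometric mean, between 0.924 and 1.13. The list of 84 cytosolic ribosomal genes was narrowed by symbol after it was found to hold pseudogenes and kinases. With these kept, the median of day 6 minus day 0 was -0.72 over 112 genes. Alternatives were another scaling, pseudocount, filter and fold. The code was run on simulated data with large built-in changes and little noise, as a check of its working only. That check says nothing of false calls at the spread of real libraries. Python 3.11.15, pandas 2.3.3, numpy 2.4.6 and matplotlib 3.10.9 were used.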

Additional observations from a re-analysis of the deposited data

How the results depend on the processing

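No paired analysis was possible because each day had 1 RNA library. With a common median ratio, a common sum, a pseudocount of 0.1 FPKM, no filter, a mean of at least 5 FPKM, or without members that are no subunit, the median difference of members was 0.30, 0.31, 0.60, 0.55, 0.60 and 0.61 on day 4 against day 0 (0.58 as reported). In the same order it was -0.39, -0.18, -0.57, -0.44, -0.53 and -0.53 on day 5 against day 4 (-0.53), 0.22, 0.0543, 0.0857, 0.0629, 0.0645 and 0.0784 on day 6 against day 5 (0.0848), and 0.15, 0.23, 0.14, 0.0662, 0.17 and 0.17 on day 6 against day 0 (0.13). Its sign was kept in each case. With 1.5-fold in place of 2-fold, 41 members were higher and 2 lower on day 4 against day 0, 38 lower on day 5 against day 4, 3 higher and 2 lower on day 6 against day 5, and 20 higher and 13 lower on day 6 against day 0. With a common sum, 4 were lower on day 4 against day 0, 9 lower on day 5 against day 4, and 2 higher and 2 lower on day 6 against day 5. That sum was 1000000, while the FPKM of a library summed to between 194612 and 255225. The pseudocount and the limit stayed at 1, so both weighed less than on the deposited scale. More low members were thus let in, with 86 in place of 82 measured on day 4 against day 0. With the pseudocount of 0.1 FPKM, 1 was higher on day 6 against day 5 and 7 in place of 6 were lower on day 6 against day 0, and with a mean of at least 5 FPKM 0 were lower on day 4 against day 0, since Cox7a1 was left out by that filter. Beyond these points, the causes were not tested. All values rest on single libraries of unknown depth, so differences under 2-fold cannot be weighed against replicate spread.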
